A study of Mus musculus with 6 samples.

Results

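The 9 genes of cytosolic RNA sensing followed here are the members of a list given by symbol: Ddx58, Ifih1, Dhx58, Mavs, Zbp1, Eif2ak2, Adar, Samhd1 and Trex1. All 9 were found among the 21878 genes of the count table, and all 9 were among the 11459 that passed the filter on low counts. The libraries came from macrophages grown out of wild-type C57BL/6 bone marrow in 50 ng/mL macrophage colony-stimulating factor, kept for 48 h beside Lewis lung carcinoma (LLC) cells across a transwell membrane with 0.4 µm pores. Both groups had this conditioning, so no unconditioned macrophages enter the comparison. After a change of medium, the samples titled for β-elemene, a sesquiterpene found in plants, were exposed to 100 µg/mL of it (n = 3), and the controls to phosphate-buffered saline (PBS) of the same volume (n = 3), each for 24 h. The labels name no separate animals or cultures behind the replicate numbers and no carrier solvent in the PBS arm. All p-values therefore take their error from 6 libraries whose scatter may be only technical. Library names used by the submitters hold M1 (β-elemene) or M2 (PBS) with no key, and every value here follows the sample titles.

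RNA in the cytosol that looks foreign, such as long double-stranded RNA or RNA with an uncapped triphosphate end, is bound by the RIG-I-like receptors, helicases that pass the signal to the mitochondrial adaptor MAVS and on to kinases that switch on interferon genes. Other sensors act on related RNA: PKR halts translation, and ZBP1, which binds the left-handed Z form, engages kinases of cell death. ADAR edits the cell's own double-stranded RNA, TREX1 digests stray DNA and SAMHD1 removes deoxynucleotides, and loss of any of these enzymes in people is a known cause of an inherited interferon disease. Many of these genes are themselves interferon-stimulated in macrophages.

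Library totals ran from 18916844 to 20729887 counts. Levels are given as CPM, counts relative to the library total, after scaling by the trimmed mean of M-values (TMM), which took factors of 0.794 to 0.812 in β-elemene libraries against 1.24 to 1.26 in PBS libraries. The smallest count of any member in a library was 366 (Mavs) and the largest 58646 (Samhd1), so no member was near the floor of 3 counts (0.116 to 0.195 CPM). All 9 macrophage markers were detected, led by Lyz2, and their summed level was 16659 to 17216 CPM in β-elemene libraries against 13565 to 14569 in PBS libraries. Of these markers 6 were higher and 3 lower with β-elemene, among them Csf1r at 928 CPM against 2672. Of 9 tumour and epithelial markers, Krt19, Cldn4, Sftpc and Nkx2-1 were at 0 in all libraries, and the list's sum was 0.0613 to 0.130 CPM in β-elemene libraries against 119 to 146 in PBS libraries, there almost wholly Cdh1 (135 ± 14.1 CPM, SD, n = 3). Summed markers of plasmacytoid dendritic cells were 189 to 225 CPM against 66.8 to 75.1, mostly Tcf4, with the defining marker Siglech at 0.104 and 0.103. Neutrophil markers, led by S100a8, summed to 27.5 to 32.1 CPM against 12.4 to 16.2, conventional dendritic cell markers, led by Batf3, to 3.92 to 4.74 against 38.4 to 44.1, fibroblast and endothelial markers, led by Pecam1, to 4.30 to 7.93 against 31.7 to 36.1, and lymphocyte markers, led by Cd4, to 6.32 to 8.46 against 5.38 to 6.99. These sums rest in large part on their leading genes, and other markers went the other way: Clec9a of the conventional dendritic cells and Cdh5 of the endothelium were higher with β-elemene (1.56 against 0.220 CPM and 1.27 against 0.272 CPM), and the neutrophil genes Mpo and Cxcr2 were 10.2-fold and 29.4-fold lower. The part of these cell types in the results below was not tested.

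Promoter sequence was available for 7 of the 9 members from RefSeq (GRCm38.p6, 250 bases before to 50 after each start site, 10 windows in all). Dhx58 and Zbp1 had no entry. A shortened core of the interferon-stimulated response element (ISRE), GAAANNGAA on either strand, lay in a window of 4 of the 7 (Ifih1, Ddx58, Eif2ak2 and Adar), where 8.99% of the genes tested that have a window, and 8.56% of all 32851 windows, hold it. A gene can have several windows. For the members whose windows match, 30 bases around each match are printed 5′ to 3′ on the gene's strand with the match in capitals. The 100 bases before the Mavs start, where no match was found, are printed beside them. The windows of Samhd1 and Trex1, which rose, held no match either, so a match did not set the members that rose apart from Mavs. The Eif2ak2 stretch holds 2 matches that overlap.

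Ifih1, chr2:62646349-62646378, minus strand, before the start: aagaattcgcgTTCCCTTTCctgtttctca
Ifih1, chr2:62646206-62646235, minus strand, after the start: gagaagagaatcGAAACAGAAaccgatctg
Ddx58, chr4:40239804-40239833, minus strand, across the start: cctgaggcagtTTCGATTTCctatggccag
Eif2ak2, chr17:78882533-78882562, minus strand, after the start: tccgccggGAAAACGAAACAGAAgagaacc
Adar, chr3:89730468-89730497, plus strand, before the most downstream of 3 starts: gGAAAAGGAActtcctcacagggcggagag
Adar, chr3:89730738-89730767, plus strand, after the same start: ttttcaaggaaacGAAAGTGAActctgggg
Mavs, chr2:131233963-131234062, plus strand, before the start: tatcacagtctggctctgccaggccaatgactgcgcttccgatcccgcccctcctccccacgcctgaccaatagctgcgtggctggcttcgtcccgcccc

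The interferon-gamma activated site TTCNNNGAA, a palindrome, lay in a window of 3 of the 7 members (Samhd1, Eif2ak2 and Adar), against 8.40% of the genes tested and 8.30% of windows. None of the 7 held the NF-kB word GGGNNTTCC (8.78% of the genes tested and 5.82% of windows) or the cyclic AMP response element TGACGTCA (3.74% and 1.79%). These are matches of letters in a window and no measure of binding. In the GENCODE M21 annotation, transcripts that begin 30 bases after the start at 89730718 encode up to 1178 codons, whereas the coding transcript that begins at 89715022 encodes 930. The windows at 89715022 and at 89715238 held no ISRE core. Counts per gene pool these forms, so the Adar values below do not tell them apart.

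Which sensing transcripts differed between β-elemene and PBS was asked of the whole count table, with edgeR's quasi-likelihood test and Benjamini-Hochberg adjustment over all 11459 genes. Of the 9 members, 8 rose with β-elemene and Mavs fell, where 36.6% of all genes tested were higher and 40.2% lower. All 8 rises were at least 4-fold, which 8.28% of all genes tested reached, and the median log2 fold change of the 9 was 3.28 against -0.06 over all genes. For the 8 that rose, every β-elemene library was above every PBS library, and for Mavs every one was below. Over all genes, 37.9% had every β-elemene library above every PBS library. The share of all genes with every β-elemene library below was not counted. The balance over all genes depends on scaling (4189 higher and 4602 lower as tested, 2947 and 6528 with the upper quartile, 2166 and 8003 with library size alone), while the members gave 8 higher and 1 lower under each scaling. In bulk RNA, a change in the number of cells that express a gene and a change in RNA per cell cannot be told apart.

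**Figure D1:**
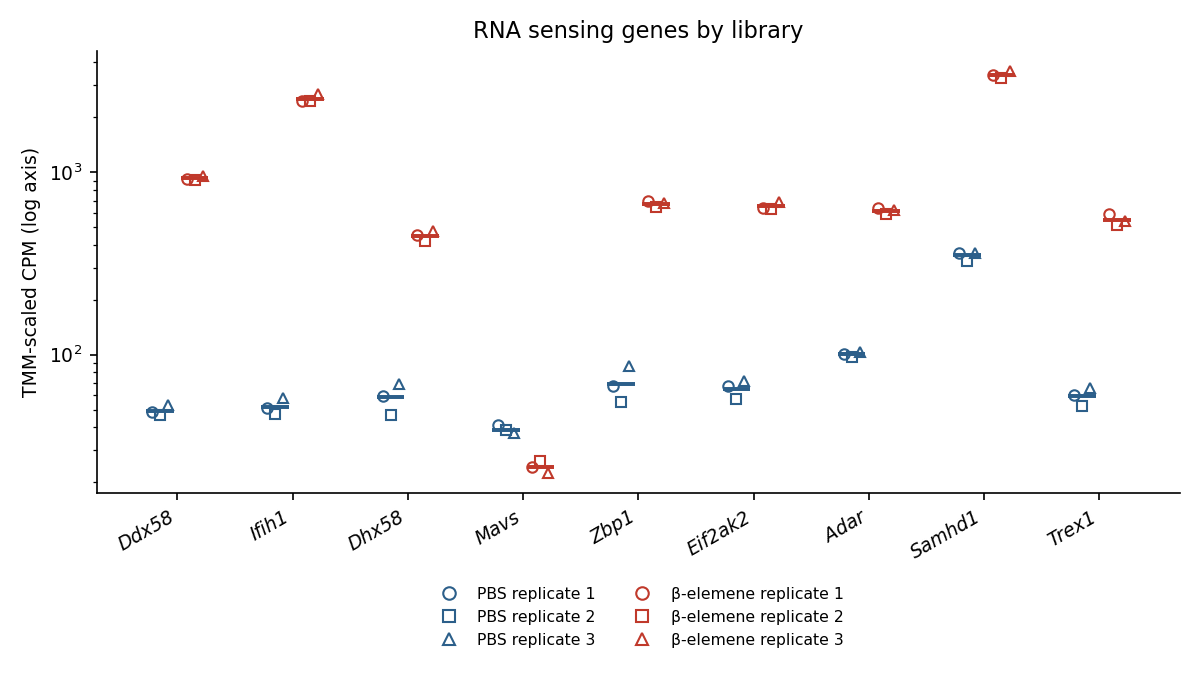
TMM-scaled CPM of the 9 members on a log axis, 1 symbol per library (shape marks the replicate number) with a bar at each group's mean. For 8 genes the β-elemene points lie far above the PBS points, with Ifih1 spanning the widest gap (2536 against 51.9 CPM), and for Mavs they lie below (24.3 against 38.8 CPM).

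Among the receptors, Ifih1, which encodes MDA5, the sensor of long double-stranded RNA (chromosome 2, 62595618 to 62646255 in GRCm38.p6, as for all members, with 15 exons in the matched transcript), had the largest rise of the 9. It stood at 2462, 2450.4 and 2697 CPM in β-elemene replicates 1, 2 and 3 and at 50.8, 47.0 and 57.9 CPM in the PBS replicates. The lowest β-elemene library thus exceeded the highest PBS library many times over. The change was 48.8-fold (log2 fold change 5.61, SE 0.10, edgeR adjusted p = 2.48e-14), and 1.15% of the genes tested had a larger rise. Ddx58, which encodes RIG-I, the sensor of triphosphate ends (chromosome 4, 40203777 to 40239825, 18 exons), stood at 916, 903 and 956 CPM with β-elemene and 48.5, 46.7 and 53.0 with PBS. The groups were tight and far apart, and the rise was 18.7-fold (log2 fold change 4.23, SE 0.07, edgeR adjusted p = 2.21e-14). Dhx58, which encodes LGP2, a helicase without the signalling domains that tunes the other receptors (chromosome 11, 100694884 to 100704271, 13 exons), stood at 451, 419 and 476 CPM against 59.7, 46.6 and 68.9. PBS was more scattered here, and the rise of 7.68-fold (log2 fold change 2.94, SE 0.14, edgeR adjusted p = 1.91e-07) was the smallest of the 3 receptors.

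Mavs, the adaptor on which RIG-I and MDA5 converge (chromosome 2, 131234063 to 131248025, 7 exons), was the member that fell. It stood at 24.3, 26.0 and 22.4 CPM with β-elemene and at 40.9, 38.5 and 37.0 with PBS. All 3 treated libraries were below all 3 PBS libraries, with a gap wider than the spread within either group. How common such a separation was over all genes was not counted, and 40.2% of all genes tested were lower. The log2 fold change was -0.68 (SE 0.08, edgeR adjusted p = 2.48e-06), a size that 25.7% of the genes tested passed in the same direction. With library size alone, where the median of all genes moved to -0.70, Mavs was at -1.32. A change of scaling shifts all genes by a like amount. Mavs thus lay below the median gene under both, and the second scaling adds no separate evidence of that.

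The sensors outside the receptor family and the editing enzyme rose too. Zbp1, the Z-form RNA sensor (chromosome 2, 173206612 to 173218959), stood at 697, 642 and 677 CPM with β-elemene and 67.0, 54.7 and 86.2 with PBS. Its PBS libraries were the most scattered of any member (coefficient of variation 22.9%), yet the groups were far apart, with a 9.69-fold rise (log2 fold change 3.28, SE 0.16, edgeR adjusted p = 8.95e-07). Eif2ak2, which encodes PKR, the kinase that phosphorylates the initiation factor eIF2α (chromosome 17, 78850504 to 78882572), stood at 640.3, 630.4 and 689.7 CPM against 67.1, 56.8 and 71.6, a 10.02-fold rise (log2 fold change 3.33, SE 0.09, edgeR adjusted p = 9.41e-13). Adar, the editing enzyme that marks self double-stranded RNA (chromosome 3, 89714469 to 89753455), stood at 639.6, 594 and 617 CPM against 101, 97.3 and 103. It had the tightest PBS group and the smallest rise of the 8 that rose, 6.14-fold (log2 fold change 2.62, SE 0.06, edgeR adjusted p = 2.29e-13). Merged Adar exons share 1365 bases (16.8%) with the antisense gene Chrnb2, which had 107 counts over all 6 libraries, and the strand setting of the counting is not given in the sources used here.

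The enzymes that limit self nucleic acids rose as well. Samhd1, a phosphohydrolase of deoxynucleotides (chromosome 2, 157097534 to 157135096), was the most abundant member in both groups, at 3392, 3278 and 3596 CPM with β-elemene and 362, 327 and 363 with PBS. That was a 9.76-fold rise (log2 fold change 3.29, SE 0.08, edgeR adjusted p = 2.47e-13). Trex1, the main cytosolic DNA exonuclease (chromosome 9, 109057932 to 109059723, 2 exons), stood at 587, 512 and 541 CPM against 60.3, 52.6 and 65.5, a 9.19-fold rise (log2 fold change 3.20, SE 0.09, edgeR adjusted p = 2.51e-12). Exons of Atrip, its neighbour on the same strand, cover 100% of the merged Trex1 exons in GENCODE M21, so Trex1 reads could have been assigned to either gene. Atrip itself was counted at 6.95, 7.68 and 6.50 CPM with β-elemene and 9.95, 9.01 and 8.85 with PBS, lower where Trex1 was higher.

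Together the 9 genes took 0.768% to 0.815% of all counts in the β-elemene libraries and 0.0953% to 0.112% in the PBS libraries. All members but Mavs shared their lowest replicate within each group. With PBS, replicate 2 was the lowest and replicate 3 the highest for 8 of the 9, all but Mavs, where over all genes tested replicate 2 was the lowest for 37.8% and replicate 3 the highest for 36.4%. Among the β-elemene libraries, too, replicate 2 was the lowest for the same 8 members (35.2% of all genes tested), while replicate 3 was the highest for 5 of the 9 (31.7%). The median coefficient of variation of the 9 was 10.7% with PBS and 4.86% with β-elemene, against 5.97% and 8.40% over all genes tested. With PBS replicate 2 or replicate 3 left out, the 9 members kept their direction and stayed past the threshold. Across all leave-outs of 1 library the log2 fold change of Zbp1, the most scattered, was 3.13 to 3.46 and that of Dhx58 2.80 to 3.08.

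Levels of different genes are compared per kilobase, using the transcript that the count table names for each. With PBS the order was Samhd1 (89.3 ± 5.17 CPM per kilobase, SD, n = 3), Trex1 (54.8 ± 5.95), Zbp1 (34.8 ± 7.99), Dhx58 (24.2 ± 4.66), Adar (17.0 ± 0.488), Eif2ak2 (15.1 ± 1.76), Ifih1 (14.4 ± 1.53), Ddx58 (12.7 ± 0.836) and Mavs (12.7 ± 0.644). Neighbours from Adar downwards overlapped in their libraries, as did Zbp1 with Dhx58, so the order of those neighbours did not exceed the spread between libraries, although within each PBS library Ifih1 was above Ddx58 and Mavs on this length. With β-elemene the order was Samhd1 (872 ± 41.1), Ifih1 (701 ± 38.4), Trex1 (504 ± 35.0), Zbp1 (338 ± 14.2), Ddx58 (239 ± 7.07), Dhx58 (186 ± 11.7), Eif2ak2 (152 ± 7.36), Adar (104 ± 3.88) and Mavs (7.94 ± 0.589), and no neighbours overlapped. Ifih1, among the overlapping lower levels with PBS, came after Samhd1 alone with β-elemene. With merged exons as the length instead, Trex1 came before Samhd1 in both groups, and with PBS Ifih1 (6.36 ± 0.678) and Ddx58 (7.01 ± 0.460) came below Mavs (11.6 ± 0.588), so orders between genes hold for the stated length only.

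**Figure D2:**
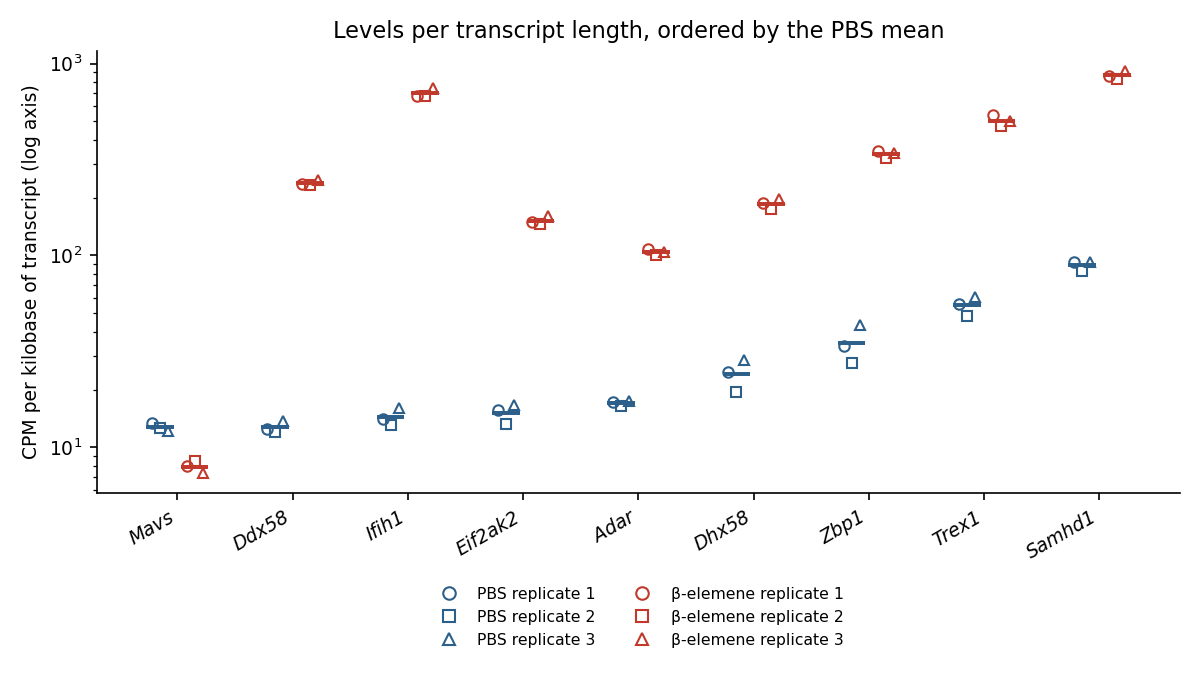
CPM per kilobase of transcript on a log axis for the 9 members, ordered by the PBS mean, 1 symbol per library with a bar at the group mean. PBS levels of Mavs, Ddx58, Ifih1 and Eif2ak2 crowd between 12.1 and 16.6, while the β-elemene levels spread from 7.34 (Mavs) to 916 (Samhd1).

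Ratios between members within a library depend on no scaling between libraries, and their change between groups depends on no gene length. The 10 ratios given were chosen after the counts were seen. Per kilobase, Ifih1 over Ddx58 was 2.88, 2.91 and 3.02 in the β-elemene libraries and 1.12, 1.08 and 1.17 with PBS, a 2.61-fold shift towards MDA5 transcript. Dhx58 over Ifih1 went the other way, from 1.76, 1.48 and 1.78 with PBS to 0.274, 0.256 and 0.264, a 6.31-fold change. Each receptor rose against the adaptor, which fell. Ifih1 over Mavs was 1.05, 1.03 and 1.32 with PBS and 85.7, 79.5 and 102 with β-elemene, and Ddx58 over Mavs was 0.935, 0.956 and 1.13 against 29.7, 27.4 and 33.6. Dhx58 over Mavs was 1.85, 1.53 and 2.36 against 23.5, 20.4 and 26.9. Adar rose less than both Ifih1 and Eif2ak2: Adar over Ifih1 fell from 1.22, 1.27 and 1.09 to 0.159, 0.148 and 0.140, and Adar over Eif2ak2 from 1.10, 1.25 and 1.05 to 0.729, 0.687 and 0.653. Samhd1 over Trex1 overlapped between the groups, at 1.60, 1.77 and 1.83 against 1.66, 1.72 and 1.53 (exact permutation p = 0.4, two-sided). For the other 9 ratios the groups did not overlap, and the exact two-sided permutation p was 0.1, the smallest that 3 against 3 allows (0.111 after adjustment over the 10), so this test could not reach 0.05 here.

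**Figure D3:**
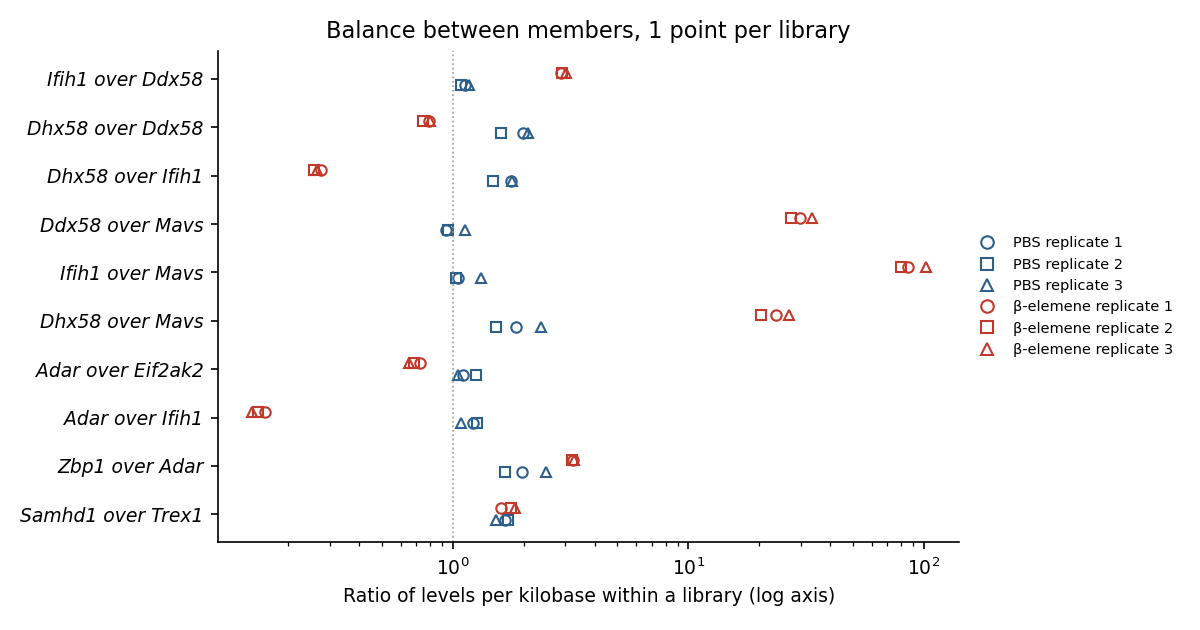
Ratios of per-kilobase levels between 2 members within each library, on a log axis, 1 symbol per library and a dotted line at equal levels. Ifih1 over Mavs moves from about equal with PBS (1.03 to 1.32) to 79.5 to 102 with β-elemene, while the groups of Samhd1 over Trex1 overlap.

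As shares of the summed per-kilobase level of all 9, Ifih1 held 22.6% ± 0.723 (SD, n = 3) with β-elemene and 5.22% ± 0.160 with PBS. Mavs held 0.256% ± 0.0294 against 4.65% ± 0.562. On this transcript length Samhd1 was the largest share in both groups, at 28.1% ± 0.416 and 32.6% ± 1.62. With merged exons as the length, Trex1 was above Samhd1 in both groups.

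**Figure D4:**
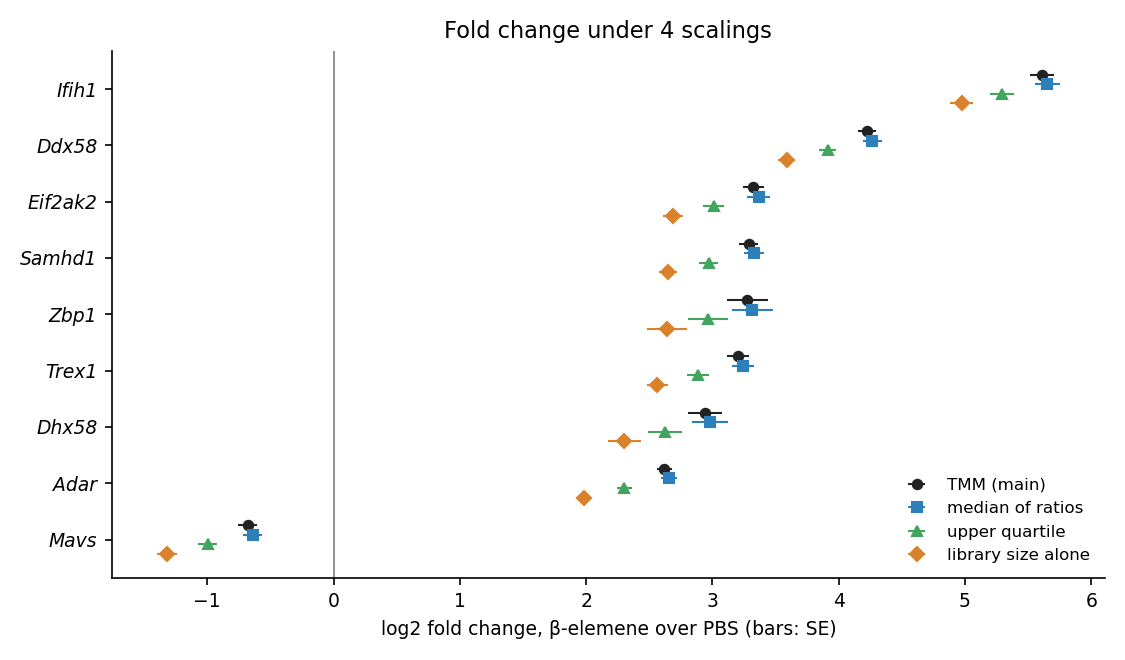
log2 fold change of each member (β-elemene over PBS, bars are SE) under TMM and 3 other scalings, ordered by the TMM value. Each scaling shifts all 9 genes by a like amount, and none moves a gene across 0: library size alone puts Ifih1 at 4.97, Adar at 1.98 and Mavs at -1.32.

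Of 131 listed pathway genes with a row, 119 were tested, and 66 rose, 34 fell and 19 did not pass, where 36.6% of all genes tested were higher and 40.2% lower. The count of each list is to be read against those shares, and several lists lie near them. With the upper quartile 51 rose and 52 fell, and with library size alone 40 rose and 69 fell, so the counts per list below hold for TMM. Of 16 genes listed as cofactors of the receptors, 8 rose and 5 fell (median log2 fold change 0.15, against -0.06 over all genes). With library size alone 5 rose and 9 fell. Whether a listed gene aids or restrains the receptors in these cells was not tested. Oasl1, an oligoadenylate synthetase-like protein, stood at 2499 ± 166 CPM against 48.8 ± 6.04, a rise of 5.68 on the log2 scale (SE 0.11). Ddx60, a helicase, rose by 4.28 on the log2 scale, and Trim25 and Rnf135, the ubiquitin ligases of RIG-I, by 2.76 and 2.31. Trim65, a ligase that acts on MDA5, fell from 6.95 ± 0.221 to 1.44 ± 0.348 CPM, and Hdac6, a deacetylase, fell from 12.9 ± 0.117 to 6.41 ± 0.755.

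Of 19 genes listed from Mavs to interferon signalling, 13 rose and 3 fell (8 and 9 with library size alone), with a median of 0.59. Ifit3, which belongs to a family of near-identical copies and is therefore uncertain, rose by 7.16, Irf7, the interferon-inducible regulatory factor, by 3.93 (2772 ± 289 against 182 ± 31.0 CPM), Tank by 2.88 and Azi2, another scaffold of the kinase complex, by 2.31. The kinases themselves, named after their values were seen, rose too: Tbk1 stood at 309 ± 16.6 CPM against 104 ± 5.78 (log2 fold change 1.57) and Ikbke at 626 ± 47.8 against 156 ± 19.4 (a 4.01-fold rise). Irf3, the constitutive factor that Mavs signalling activates, also named after its values were seen, was at 26.5, 26.5 and 25.5 CPM with β-elemene and 31.5, 30.7 and 32.4 with PBS. It fell by 0.27 on the log2 scale (SE 0.07; adjusted p = 0.00282 in edgeR, with alternatives between 2.88e-08 and 0.0205), a small change in the same direction as Mavs. Tmem173, which encodes STING, fell from 97.9 ± 4.11 to 28.5 ± 3.76 CPM. It is counted again in the list of cytosolic DNA sensing below. Traf5, a signalling adaptor, fell by 0.60 on the log2 scale.

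Genes reported to restrain the receptors or Mavs rose in 10 of 18 cases and fell in 3 (median 0.39; 7 and 11 with library size alone). The count of 3 was 1 with the median of ratios, with DESeq2 and without β-elemene replicate 1, β-elemene replicate 3 or PBS replicate 2. Nlrc5 rose by a log2 fold change of 4.68, Tnfaip3, which encodes the ubiquitin-editing enzyme A20, by 3.72, Marchf5, a mitochondrial ubiquitin ligase, by 3.32 (585 ± 26.0 against 58.5 ± 1.39 CPM) and Usp15, a deubiquitinase, 2.82-fold. Nlrx1, a mitochondrial NLR protein, fell from 16.2 ± 0.374 to 4.83 ± 0.776 CPM. Atg5, an autophagy gene, was at -0.20 (edgeR adjusted p = 0.0228), a call lost with the median of ratios and without β-elemene replicate 1, β-elemene replicate 3 or PBS replicate 2 (adjusted p of 0.0544, 0.137, 0.082 and 0.0645) and with DESeq2 (0.0959).

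Partners of Zbp1 split. Of 8, 5 rose and 3 fell (median 0.33; 3 and 4 with library size alone). Mlkl, the executor of necroptosis, stood at 273 ± 12.5 CPM against 14.9 ± 1.72, a rise of 4.19 on the log2 scale (SE 0.08), and Cflar, an inhibitor of caspase-8, rose by 2.97 and Casp8 by 1.79. Ripk3, the kinase between Zbp1 and Mlkl, stood lower, at 14.7 ± 2.46 CPM against 30.4 ± 2.96 (a change of -1.05 on the log2 scale, SE 0.12, edgeR adjusted p = 3.77e-06), and Casp6 fell by 2.23 on the log2 scale. Ticam1, the adaptor TRIF, was at 0.49, and at -0.15 with library size alone. Sensor and executor thus stood higher beside a lower level of the kinase that links them.

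For PKR, 6 of 13 partners and stress genes rose and 6 fell (median -0.12; 2 and 11 with library size alone). Ppp1r15b and Ppp1r15a, the subunits that direct removal of the phosphate PKR places on eIF2α, rose as well (503 ± 33.7 against 126 ± 1.44 CPM, and 55.9 ± 3.34 against 14.7 ± 1.77). Of the other eIF2α kinase genes, Eif2ak4 and Eif2ak3 fell by 1.51 and 1.48, unlike Eif2ak2. Eif2ak1, named after its values were seen, did not pass (log2 fold change -0.12, edgeR adjusted p = 0.0676). Nck1 and Atf3 were at 0.46 and 0.27, and both were negative with library size alone (-0.17 and -0.37). With the upper quartile neither passed (0.15 and -0.05).

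Other editing and double-stranded RNA binding genes did not follow Adar. Of 12 tested, 3 rose and 6 fell (median -0.19; 0 and 10 with library size alone, 3 and 3 with DESeq2). Adat1, a tRNA editor, stood at 2.47 ± 0.928 against 4.42 ± 0.700 CPM, and Dgcr8 and Ilf2 fell by 0.57 and 0.48 on the log2 scale. Dicer1 was at -0.20 (adjusted p = 0.0587 with DESeq2). Stau2 was at 0.50, a call lost with library size alone (-0.14) and with the upper quartile (0.19). Adarb2 and Adad1 had 0 counts in all libraries.

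Of 17 genes of self nucleic acid clearance, 11 rose and 4 fell (median 0.44; 6 and 9 with library size alone). Dnase1l3, a secreted DNase, stood at 2.70 ± 0.903 CPM against 0.117 ± 0.0675, at or near the floor with PBS (a rise of 4.47 on the log2 scale, SE 0.45). Rnaset2b and Rnaset2a, near-identical copies of a lysosomal RNase that the counting could have split, rose 7.98-fold and 7.78-fold, and Pnpt1, a mitochondrial RNA exonuclease, 4.99-fold. Dnase2a, the lysosomal DNase, fell from 156 ± 5.30 to 54.3 ± 3.40 CPM. Of 11 cytosolic DNA sensing genes, 3 rose and 6 fell (median -0.50; 3 and 8 with library size alone). Ifi204 and Trim56 rose by 3.81 and 1.89, and Mb21d1, which encodes cGAS, was the remaining member that rose (3.49-fold; named after its values were seen). Enpp1, the hydrolase of the cGAS product, fell from 90.7 ± 10.1 to 9.87 ± 2.17 CPM, Xrcc6 fell by 2.50 and Prkdc, a DNA-dependent kinase, fell by 1.63.

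**Figure D5:**
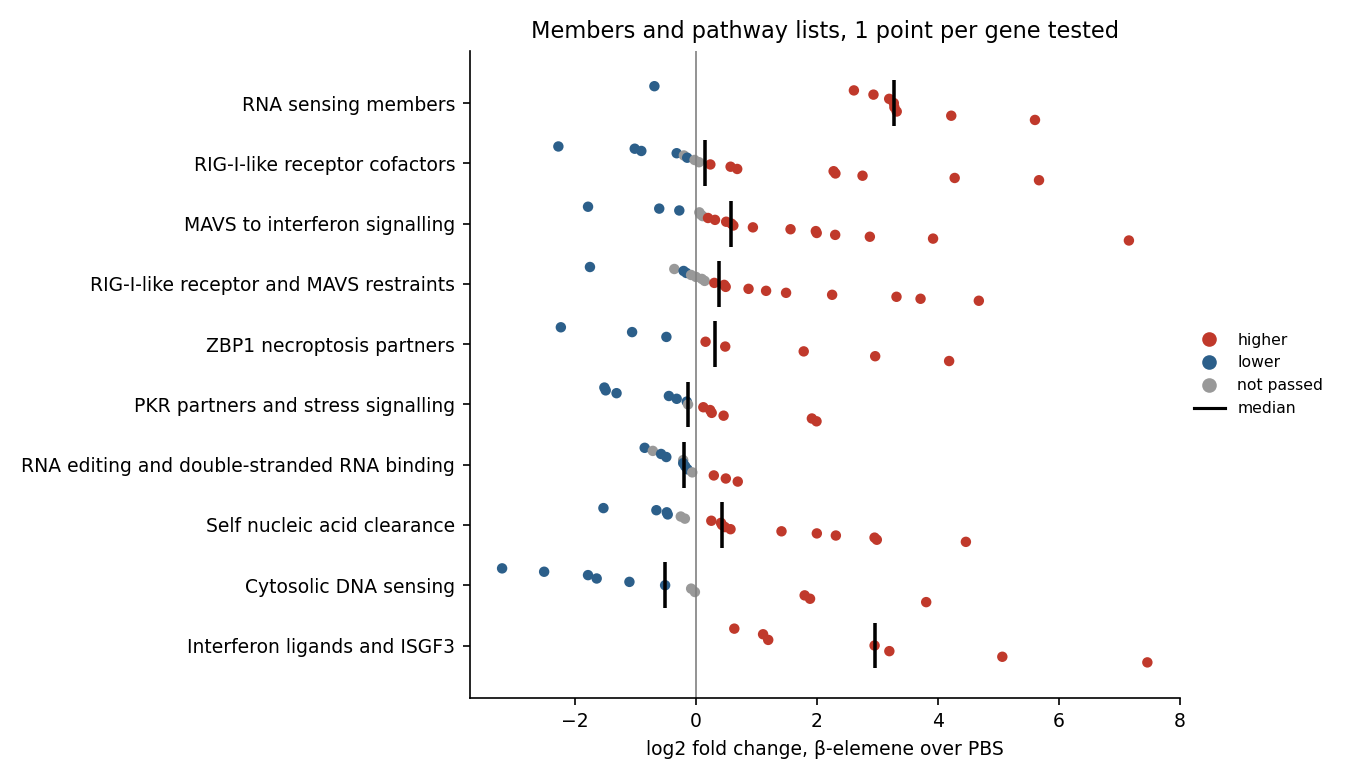
log2 fold change (β-elemene over PBS) of the 9 members and of each gene tested in 9 pathway lists, 1 point per gene, coloured by its call, with a black bar at the median. The members sit to the right (median 3.28) with Mavs alone below 0, whereas 8 of the 9 lists straddle 0 and the interferon list lies wholly above it. In that list Ifnb1 and Ifng passed the filter on low counts only through their β-elemene libraries.

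Of 15 interferon ligand, receptor and ISGF3 genes, 7 were tested and all 7 rose (6 with library size alone), with a median of 2.96. Ifnb1 and Ifng passed the filter on low counts only through their β-elemene libraries, so a fall could not have been called for them. With a filter of 1 CPM in 3 libraries, 6 were tested, all 6 rose and the median was 2.08. Transcripts of the ligands were sparse. Ifnb1 had 15, 21 and 36 counts with β-elemene and 3, 0 and 0 with PBS, a TMM-scaled ratio of 38.7 (95% exact binomial counting interval 12.7 to 192). Ifng, the type II interferon, had 43, 36 and 82 counts against 1, 0 and 0, a ratio of 259 (45.9 to 10307). In both, the few PBS counts lay in replicate 1, and the intervals cover counting error only. The other 8 ligand genes listed (Ifna1, Ifna2, Ifna4, Ifna5, Ifne, Ifnk, Ifnl2 and Ifnl3) had 0 counts in all libraries, below the floor of 3 counts (0.116 to 0.195 CPM). The Ifna genes, like Ifit3, belong to a family of near-identical copies. How reads shared between copies were counted is not given, so 0 counts do not show that these transcripts were absent. Subunits of ISGF3, the factor that interferons activate, rose: Stat2 stood at 969 ± 40.1 CPM against 125 ± 5.53 and Irf9 at 119 ± 5.76 against 51.5 ± 2.99. The receptor genes Ifnar2 and Ifnar1 were at log2 fold changes of 1.12 and 0.64, the latter at 0.00 with library size alone (adjusted p = 0.958).

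Genes whose pattern was nearest to each receptor were sought among 9065 others whose mean reached 5 CPM, using the Euclidean distance of log2 CPM centred on each gene's mean over the 6 libraries. Nearest to Ddx58 were Samd9l (distance 0.10), Iqgap2 (0.11) and Mlkl (0.12). Nearest to Ifih1 were Oasl1 (0.18), Gbp6 (0.18), a member of a family with near-identical copies, and Phf11d (0.24), and nearest to Dhx58 were Oasl2 (0.10), Fcgr1 (0.15) and Hivep2 (0.19). Fcgr1 is also among the macrophage markers, and Mlkl and Oasl1 are among the listed partners of Zbp1 and of the receptors. The measure reads the difference between the groups and the scatter within them together.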

How the data were processed

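The authors deposited a table of raw counts for each gene in 6 libraries of mouse macrophages. The kit kept strand, per the labels' protocols. Per the submitters' processing notes, HISAT2 2.2.1.0 was used, with GRCm38.p6 and mm10 as genome builds. Which tool counted reads, and with what strand setting, is not given in the sources used here. Totals ran from 18916844 to 20729887 counts. The main test was edgeR 4.0.16 under R 4.3.3 (TMM, filterByExpr with a minimum count of 10 and total of 15, quasi-likelihood test, adjusted p below 0.05), after a check on simulated counts. The simulated counts held as many rises as falls, so that check did not cover the dependence on scaling. Alternatives were 3 other scalings, 2 filters, DESeq2 1.42.0, limma-voom (3.58.1), a replicate block and leaving out each library. The members and lists were chosen with earlier results of these data known. Genes named were the members, up to 4 per list past the threshold in its majority direction and 2 in the other with a mean of at least 1 CPM, the interferon genes tested, the 3 nearest genes of each receptor and the top gene of each marker list. Others are marked as chosen later, apart from markers and Atrip. Promoters came from RefSeq and lengths from GENCODE M21. Some genes named by this rule are not reported here.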

Additional observations from a re-analysis of the deposited data

How the results depend on the processing

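All 9 members kept their direction and stayed past the threshold in all 14 alternatives, with log2 fold changes of 4.97 to 5.69 for Ifih1, 3.59 to 4.28 for Ddx58 and -1.32 to -0.61 for Mavs. With library size alone, 2166 genes were higher and 8003 lower, and 40 pathway genes rose and 69 fell. With the upper quartile, 52 pathway genes fell. Leaving out 1 library gave 4021 to 4296 genes higher and 4347 to 4477 lower, and 64 to 67 pathway genes higher and 27 to 30 lower. The labels do not say whether the replicate numbers pair the samples. Deviations over all genes of same-numbered libraries correlated at -0.02, 0.08 and 0.03, and not every library correlated best with its own number. With 3 libraries per group, these values cannot settle whether the samples were paired. For 8 of the 9 members, replicate 2 was nonetheless the lowest in both groups. With the number as a block, 4188 genes were higher and 4605 lower, and 8 members rose and 1 fell. The block lowered the SE of the log2 fold change for every member but Adar and Mavs, for Dhx58 from 0.14 to 0.07. Where a setting changed a count, the cause was not tested. Among the genes named, Irf3 passed in every alternative. Depth limits the interferon ligands, with 3 PBS counts for Ifnb1 and 1 for Ifng.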
